A study of Mus musculus with 8 samples.

Results

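Tunicamycin was compared with control at 8 h in 3T3-L1 adipocytes, over all genes measured by the arrays. The comparison was chosen by its labels alone: the 1 array of cells exposed to tunicamycin and the 2 control arrays of the 8 h time point, 3 of the 8 arrays of the study. 3T3-L1 is an established mouse fibroblast line that becomes fat cells after hormonal induction, so a single line stands for the adipocyte, and such cultures can also hold cells that have not differentiated. The control arrays, replicates 1 and 2, came from cultures that the labels call biological replicates and were harvested at 8 h. The tunicamycin array came from cultures exposed to tunicamycin for the same time, at a dose that the labels do not state. The other 5 arrays held 1 control and 1 tunicamycin sample at 4 h, and 1 control and 2 tunicamycin samples at 12 h. They entered the fit, which assumes that the lone 8 h tunicamycin array varies like the replicated groups, and are used below to show where the effect at 8 h differed from that at other times. Total RNA was extracted with Trizol and labelled with biotin for Affymetrix arrays, per the labels' protocols.

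Tunicamycin blocks the enzyme that starts the sugar chain of N-glycosylated proteins in the endoplasmic reticulum (ER). Glycoproteins made without that chain fold poorly, and unfolded protein in the ER sets off the unfolded protein response. Its sensors are PERK, which slows translation through eIF2alpha and raises the transcription factors ATF4 and CHOP, IRE1, which splices Xbp1 RNA and cuts other RNAs at the ER, and ATF6, which is cleaved in the Golgi to a transcription factor. Fat cells secrete much protein and make and store fat under PPARgamma and C/EBPalpha, and ER stress in fat tissue is studied in obesity and insulin resistance.

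Each array gave an intensity for 45101 probe sets, and 10916 genes were bright enough to be tested. Intensities below are in arbitrary units after quantile normalization. Differences are log2 fold changes, positive where tunicamycin was higher, with a standard error (SE) from limma's fit, and a gene was called where the Benjamini-Hochberg adjusted p over all tested genes was under 0.05. The deposited intensity had a median of 14.2 and 22 on the controls and 16.5 with tunicamycin. Over tested genes the 8 h controls correlated with each other at r = 0.984, and the tunicamycin array with them at 0.941 and 0.944. The ratio of 3' to 5' probe signal, which rises as RNA or labelling shortens, was somewhat higher with tunicamycin for all 3 control transcripts: 1.68 against 1.54 and 1.57 for beta-actin, 0.971 against 0.857 and 0.873 for GAPDH, and 19.8 against 12.1 and 15.3 for pyruvate carboxylase. This difference runs along every result below, and its part in them was not tested.

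At 8 h, 1028 genes were higher with tunicamycin and 977 were lower. These are 9.42% and 8.95% of the tested genes, 18.4% together, and they are the background for every count below. Changes of at least 2-fold were called for 441 higher and 364 lower genes, of at least 4-fold for 69 and 43, and of at least 8-fold for 16 and 9. The increases therefore reached further than the decreases on the scale used, although the median over all tested genes was -0.0168. Values below 0 were set to 0 and a pseudocount of 2.956 was added, which bounds a decrease but not an increase. The part of this floor in the difference was not tested. The tunicamycin array differed from the mean of the controls by a median of 0.330 on the log2 scale in either direction, against 0.158 between the 2 controls. A difference of 2-fold or more separated the tunicamycin array from the controls' mean for 1051 genes (9.63%), and the controls from each other for 203 (1.86%). The counts lean on both controls: without replicate 1 there were 532 higher and 411 lower genes, and without replicate 2 there were 544 and 403. They also lean on the scaling, since with the deposited scaling kept only 25 higher and 13 lower genes were called, 36 of which are among those above. Of the 148 called genes named by rule, 28 were called under that scaling and 16 kept their call in each of 14 alternative settings in which they were tested: Atf3, Bcat1, Ccdc134, Chac1, Creld2, Ddit3, Herpud1, Kctd12b, Manf, Nucb2, Ppp1r15a, Sdf2l1, Sel1l, Slc20a1, Trib3 and Wfs1.

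**Figure D1:**
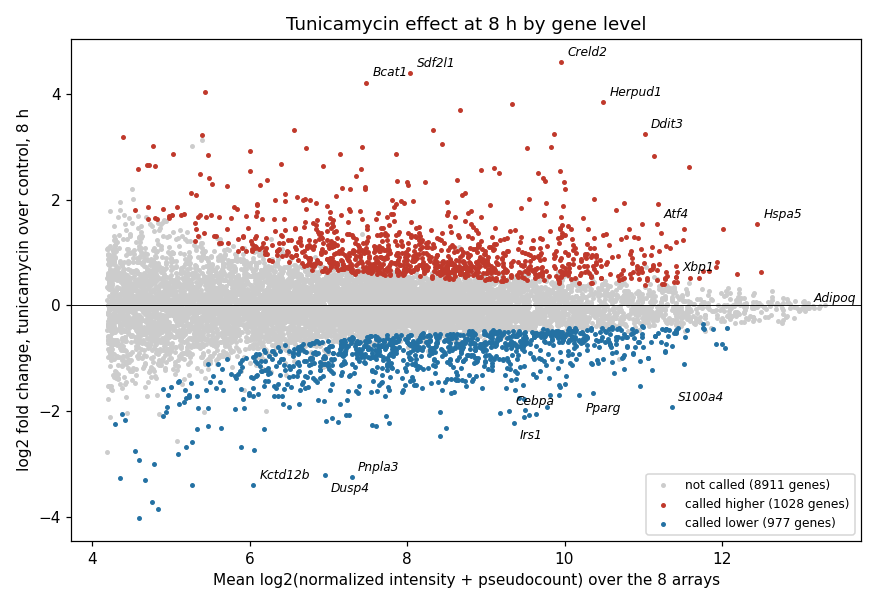
Log2 fold change at 8 h (vertical axis) against the mean log2 intensity over the 8 arrays (horizontal axis) for each of 10916 tested genes. The 1028 genes called higher (red) reach 4.60 at Creld2, and few called genes lie at the dim end, where the spread is wide.

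Genes of ER protein quality control and of the stress response behind ATF4 and CHOP were among the largest increases, beside genes with other roles. Creld2, an ER-resident chaperone-like protein, had intensities of 224 and 229 on the controls and 5581 with tunicamycin, a log2 change of 4.60 with an SE of 0.123 (adjusted p = 1.44e-06). Sdf2l1, a partner of ER chaperones, had 57.7 and 82.2 on the controls and 1512 with tunicamycin, a log2 change of 4.40 with an SE of 0.214 (adjusted p = 2.59e-05). The controls lay close together and the tunicamycin array far above both. Bcat1, the cytosolic enzyme that moves amino groups from branched-chain amino acids, had 35.9 and 40.6 on the controls and 759 with tunicamycin, a log2 change of 4.21 with an SE of 0.213 (adjusted p = 3.17e-05). Herpud1, which sits in the ER membrane and helps degradation, had 381 and 424 on the controls and 5807 with tunicamycin, a log2 change of 3.84 with an SE of 0.128 (adjusted p = 3.55e-06). Trib3, a pseudokinase induced by CHOP, had 172 and 172 on the controls and 2452 with tunicamycin (3.81), and Ppp1r15a, the GADD34 subunit that directs a phosphatase to eIF2alpha, had 109 and 146 on the controls and 1669.8 with tunicamycin (3.70). For each of these the tunicamycin array was far outside the range of the 2 controls.

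Other genes among the 15 with the largest increases have roles outside the ER. Slc20a1, a sodium-phosphate transporter, had 128 and 110.1 on the controls and 1203 with tunicamycin (3.31). Plcxd2, a member of the phosphoinositide phospholipase C family, had 33.3 and 32.8 on the controls and 354 with tunicamycin (3.31), and Nucb2, the calcium-binding precursor of nesfatin-1, had 133 and 109.8 on the controls and 1018 with tunicamycin (3.04). Their adjusted p were 2.59e-05, 0.000159 and 4.39e-05. Dim genes stood among them as well: Tes, a focal adhesion protein, had 3.25 and 16.7 on the controls and 178 with tunicamycin (4.03, SE 0.596), so its first control lay near the pseudocount of 2.956. Mreg, melanoregulin, had 16.4 and 20.1 on the controls and 195 with tunicamycin (3.23), and B3gntl1, a putative glycosyltransferase, had 7.55 and 6.66 on the controls and 77.8 with tunicamycin (3.01). For genes this dim the fold change is smaller on the log scale used than the ratio of the intensities. The filter averaged all 8 arrays, so a gene dim on the controls could pass it through the tunicamycin arrays. Both 8 h controls of B3gntl1 were under the filter's level of about 15.3, so its place among tested genes rests on its tunicamycin values. The rest of the 15, Sel1l, Ddit3 and Dnajc3, are described with their groups. Of the 30 genes named for the largest changes in either direction, 28 kept their call without any 1 of the 4 replicated arrays. The exceptions, Pnmal2 and 2010003K11Rik, are given with the decreases.

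**Figure D2:**
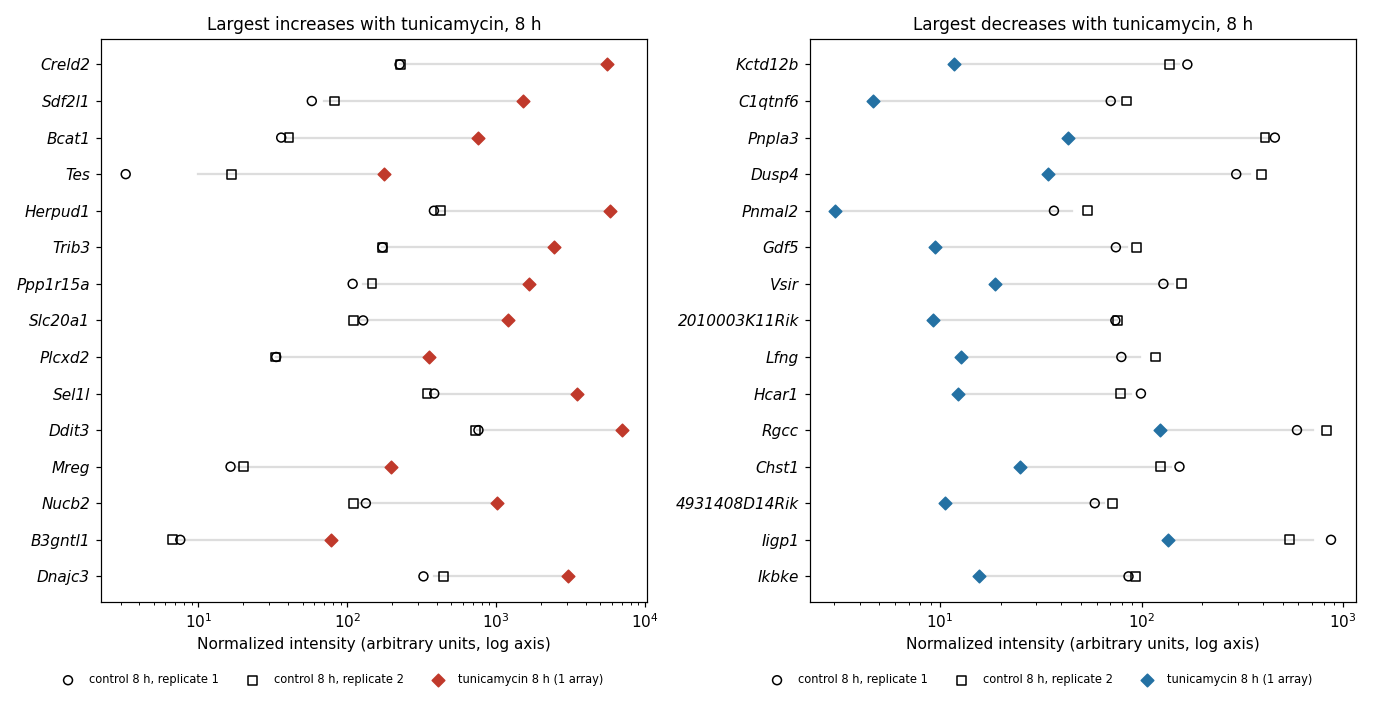
Normalized intensity (log axis) on the 3 arrays at 8 h for the 15 genes with the largest increases (left) and the 15 with the largest decreases (right). Open symbols are the 2 controls, filled diamonds the tunicamycin array, and grey lines join it to the controls' mean. For each gene the tunicamycin value lies outside the controls and all 3 values lie above the pseudocount, as the choice of genes required.

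Promoter sequences are shown for genes whose start regions hold a known stress element, because the elements connect the sensors to their targets. The 250 bases before the RefSeq start (assembly GRCm38.p6) were searched on both strands for the ER stress element, ERSE, spelled CCAAT, then any 9 bases, then CCACG, for its shorter form ERSE-II, spelled ATTGG, any 1 base and CCACG, for the unfolded protein response element, UPRE, spelled TGACGTGG, and for the C/EBP-ATF response element, CARE, spelled TGATGNAA. In the ERSE the factor NF-Y binds CCAAT and ATF6 or XBP1 binds CCACG, and a CARE is a site for ATF4 and CHOP with their partners. Below are whole windows, 5′ to 3′ along the gene, with each motif in capitals, for BiP, for the genes of the largest ERSE and ERSE-II increases, for the ubiquitin ligase of ER-associated degradation and for a pair of ATF4 targets.
Hspa5 (chr2:34771840-34772089, plus strand): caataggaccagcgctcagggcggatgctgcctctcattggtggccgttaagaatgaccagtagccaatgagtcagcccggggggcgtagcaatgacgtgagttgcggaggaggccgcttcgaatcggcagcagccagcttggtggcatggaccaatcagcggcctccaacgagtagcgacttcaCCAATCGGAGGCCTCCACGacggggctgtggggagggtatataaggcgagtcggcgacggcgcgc
Creld2 (chr15:88819396-88819645, plus strand): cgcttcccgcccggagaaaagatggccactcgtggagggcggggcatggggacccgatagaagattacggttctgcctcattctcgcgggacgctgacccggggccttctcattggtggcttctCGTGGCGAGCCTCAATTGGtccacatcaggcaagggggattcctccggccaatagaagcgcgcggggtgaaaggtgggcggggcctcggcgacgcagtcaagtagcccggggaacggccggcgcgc
Herpud1 (chr8:94386179-94386428, plus strand): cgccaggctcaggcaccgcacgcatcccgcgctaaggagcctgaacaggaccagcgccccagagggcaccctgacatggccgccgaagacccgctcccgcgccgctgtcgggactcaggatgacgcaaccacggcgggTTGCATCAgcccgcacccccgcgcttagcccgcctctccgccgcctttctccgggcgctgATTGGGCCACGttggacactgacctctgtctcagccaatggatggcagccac
Syvn1 (chr19:6046326-6046575, plus strand): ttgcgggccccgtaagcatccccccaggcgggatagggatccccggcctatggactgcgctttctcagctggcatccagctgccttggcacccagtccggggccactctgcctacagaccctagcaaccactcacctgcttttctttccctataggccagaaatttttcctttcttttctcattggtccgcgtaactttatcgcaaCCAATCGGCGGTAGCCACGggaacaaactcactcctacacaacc
Chac1 (chr2:119350992-119351241, plus strand): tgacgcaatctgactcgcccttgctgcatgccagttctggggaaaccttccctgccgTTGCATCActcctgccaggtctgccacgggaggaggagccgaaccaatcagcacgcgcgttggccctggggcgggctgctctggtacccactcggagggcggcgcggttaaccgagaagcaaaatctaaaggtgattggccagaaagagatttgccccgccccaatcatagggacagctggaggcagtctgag
Atf3 (chr1:191183334-191183583, minus strand): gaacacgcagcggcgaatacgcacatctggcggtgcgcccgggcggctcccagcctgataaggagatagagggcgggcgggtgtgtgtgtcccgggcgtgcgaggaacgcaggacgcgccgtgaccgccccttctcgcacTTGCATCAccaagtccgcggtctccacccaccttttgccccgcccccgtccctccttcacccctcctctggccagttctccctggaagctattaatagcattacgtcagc

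The ERSE of Hspa5 starts 65 bases before the gene's start, and Herpud1 holds an ERSE-II at 52 and a CARE at 112 bases before it. The capitals in the Chac1 and Atf3 windows are CAREs, at 193 and 110 bases. The windows of Creld2 and Alg12, genes that run in opposite directions from neighbouring starts, overlap and share a single ERSE, and both genes rose. In all, an ERSE or ERSE-II stood in the windows of 19 tested genes, at 20 places that make 19 distinct sites. The ERSE-II of Lrif1 overlaps a UPRE. All sites but those of the genes shown whole are given here with the flanks of each motif in capitals and the spacer in lower case, read in the motif's own direction.
Alg12 (chr15:88819520-88819538, 220 bases before the start): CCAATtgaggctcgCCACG
Calr (chr8:84847075-84847093, 162 bases before the start): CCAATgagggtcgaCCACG
Dnajc3 (chr14:118937827-118937845, 105 bases before the start): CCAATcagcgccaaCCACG
Ero1b (chr13:12565682-12565700, 201 bases before the start): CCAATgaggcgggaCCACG
Hsp90b1 (chr10:86705638-86705656, 212 bases before the start): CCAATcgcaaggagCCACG
Hsp90b1 (chr10:86705533-86705551, 107 bases before the start): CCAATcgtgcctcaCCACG
Pdia6 (chr12:17266491-17266509, 98 bases before the start): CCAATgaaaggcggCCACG
Acacb (chr5:114165431-114165449, 87 bases before the start): CCAATagccttgccCCACG
Adcy3 (chr12:4133251-4133269, 146 bases before the start): CCAATtcggcgtttCCACG
Canx (chr11:50325800-50325818, 145 bases before the start): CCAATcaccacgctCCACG
Pan2 (chr10:128303287-128303305, 48 bases before the start): CCAATcagcgggggCCACG
Lgalsl (chr11:20831307-20831317, 209 bases before the start): ATTGGaCCACG
Lrif1 (chr3:106721614-106721624, 68 bases before the start): ATTGGaCCACG
Nucb1 (chr7:45510439-45510449, 41 bases before the start): ATTGGtCCACG
Rbm39 (chr2:156180311-156180321, 83 bases before the start): ATTGGgCCACG
Rcl1 (chr19:29101293-29101303, 82 bases before the start): ATTGGcCCACG

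Of the 19 genes, 15 were called higher, 0 lower (1, Acacb, at an unadjusted p under 0.05) and 4 neither, with a median log2 fold change of 1.44 against -0.0168 over all tested genes. The medians of the same genes were 0.677 at 4 h and 1.36 at 12 h. The motif was held by 1.83% of the genes called higher that had a promoter in the table (15 of 820), and by 0% of those called lower (0 of 791). It was held by 0.0550% of those not called (4 of 7267) and by 0.214% of all tested genes with a promoter (19 of 8878). Over all genes of the table, most of them not tested, the share was 0.167%. Among genes higher by at least 4-fold the share was 8.33% (5 of 60). The 4 not called, named like the other motif holders after their values were seen, were Acacb (-0.74, adjusted p = 0.0556), Adcy3 (0.48), Canx (0.30) and Pan2 (0.06), so the letters alone did not separate the genes that rose. Motif holders outside the ER machinery included Lgalsl (1.09, adjusted p = 0.00221), a galectin-related protein, Lrif1 (1.20), Rbm39 (0.68), a splicing factor, and Rcl1 (1.46), which acts in ribosomal RNA processing. A UPRE stood in 86 tested genes, of which 19 were higher and 3 lower, and a CARE in 201, of which 32 were higher and 21 lower. Among genes without any of the 4 motifs, 756 of 8576 were higher and 767 lower. A match is a run of letters and no measurement of binding.

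**Figure D3:**
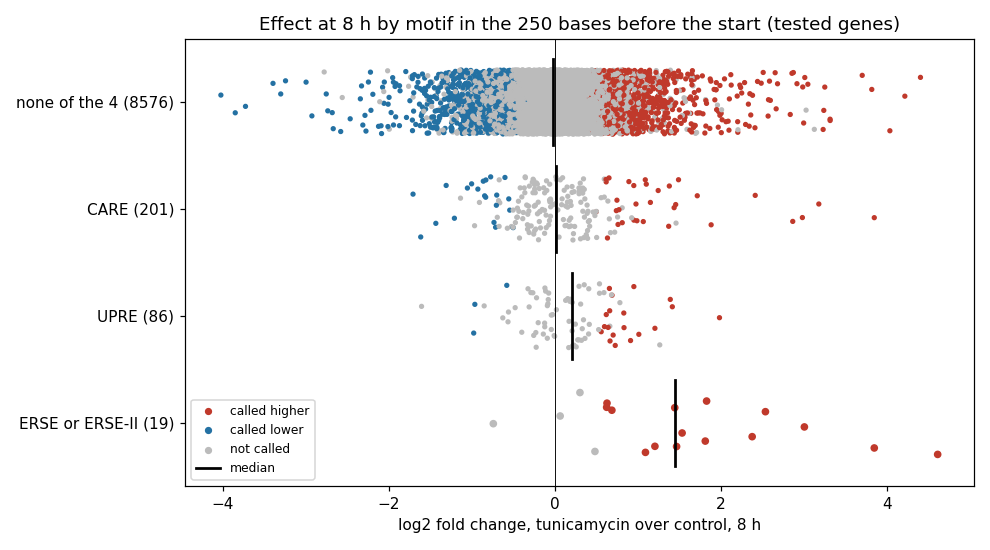
Log2 fold change at 8 h (horizontal axis) of tested genes grouped by the motif in the 250 bases before the start (rows, number of genes in parentheses), with the median as a black bar and a gene with more than a single motif in each of its rows. The ERSE or ERSE-II row has 15 of 19 genes called higher and a median of 1.44, while the row without motifs is centred near 0.

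Most sensors and transcription factors of the unfolded protein response rose. Of 19 tested, 13 were higher and 1 lower, with a median of 0.837. Ddit3, which encodes CHOP, had 759 and 721 on the controls and 6986 with tunicamycin, a log2 change of 3.23 with an SE of 0.114 (adjusted p = 3.55e-06). Atf3, a factor induced through ATF4, had 65.1 and 52.3 on the controls and 443 with tunicamycin, a log2 change of 2.86 with an SE of 0.201 (adjusted p = 0.000115). Atf4 itself, whose protein is also controlled by translation, had 1560.0 and 1353 on the controls and 4232 with tunicamycin, a log2 change of 1.54 with an SE of 0.126 (adjusted p = 0.000231). All 3 factors of the PERK branch thus rose at the RNA level. Atf6 had 104 and 115 on the controls and 382 with tunicamycin (1.78), and Eif2ak3, the gene of PERK, had 206 and 209.8 on the controls and 478 with tunicamycin (1.19). Ern1, the gene of IRE1, had 50.8 and 73.4 on the controls and 187 with tunicamycin (1.56). The sensors' own genes therefore rose too, with adjusted p of 0.000531, 0.00234 and 0.00404, but those of PERK and IRE1 depended on the probe set: with the mean of all probe sets Eif2ak3 was at 0.41 (adjusted p = 0.628) and Ern1 at -0.01 (0.991). Xbp1, the RNA that IRE1 splices, had 2350.5 and 2275 on the controls and 3347 with tunicamycin, a log2 change of 0.53 with an SE of 0.11 (adjusted p = 0.0126), the smallest called increase of the list. Its call was lost without either control (adjusted p = 0.0564 without control replicate 1 and 0.0704 without replicate 2) and with the mean of its probe sets (0.39, 0.1). These arrays were not read for splicing. The member that fell, Creb3l3 (165 and 208, then 99.9), a liver-enriched factor of the ATF6 kind, was singled out after its values were seen, and has the opposite sign in the authors' deposited table. Without either control the list had 9 higher genes and 0 lower.

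Chaperones and folding enzymes of the ER rose as well, Creld2 and Sdf2l1 among the helpers of folding. Of 38 tested, 23 were higher and 2 lower, with a median of 0.683. Hspa5, which encodes BiP, the main ER chaperone, had 3649.7 and 3329 on the controls and 10069 with tunicamycin, a log2 change of 1.53 with an SE of 0.105 (adjusted p = 0.000103). Hsp90b1, which encodes GRP94, had 2666 and 2764 on the controls and 7376 with tunicamycin, a log2 change of 1.44 with an SE of 0.116 (adjusted p = 0.000212). Both were abundant on the controls, and the tunicamycin value of Hspa5 lay close to the ceiling that quantile normalization sets, which limits its fold change. Dnajc3, a BiP cochaperone that also restrains PERK, had 324 and 440.4 on the controls and 3046 with tunicamycin (3.001, adjusted p = 9.01e-05). Ero1a, the oxidase that recharges disulfide isomerases, had 1082 and 842 on the controls and 6810.0 with tunicamycin (2.83), and Manf, a secreted ER stress protein, had 1381 and 1313 on the controls and 8218 with tunicamycin (2.61). The tunicamycin array lay outside the controls for each. Among motif holders, Ero1b had 42 and 34 on the controls and 208 with tunicamycin (2.37), Pdia6, a disulfide isomerase, had 936 and 812 on the controls and 3060.1 with tunicamycin (1.81), and Calr, calreticulin of the lectin cycle, had 4808 and 4525 on the controls and 7178 with tunicamycin (0.62). Its partner calnexin, Canx, was not called (2364 and 2666 on the controls and 3092 with tunicamycin, 0.30, adjusted p = 0.155). The 2 members that fell, named after their values were seen, were Sdf2 (-0.52), the close relative of Sdf2l1, and Tmx4 (-0.70), a membrane thioredoxin-like protein. Sdf2 and Sdf2l1 thus went opposite ways. Without control replicate 1 the list had 22 higher and 0 lower genes, and without replicate 2 it had 22 and 1.

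ER-associated degradation draws misfolded protein out of the ER to the proteasome. Of 30 genes tested, 16 were higher and 0 lower (1 lower at an unadjusted p under 0.05), with a median of 0.655. After Herpud1 came Sel1l, the adaptor of the ligase complex, with 383 and 343 on the controls and 3463 with tunicamycin, a log2 change of 3.25 with an SE of 0.136 (adjusted p = 1.16e-05). Syvn1, the ligase HRD1, had 456 and 520.2 on the controls and 2831 with tunicamycin (2.53, adjusted p = 4.8e-05). Edem1, which picks out glycoproteins that failed to fold, had 425 and 328 on the controls and 2135 with tunicamycin (2.51, adjusted p = 9.91e-05). Each of these 4 rose by more than 2 on the log2 scale. Of 29 subunits of the proteasome, which receives these proteins, 1 was higher and 5 lower, with a median of -0.216. Psma1, an alpha ring subunit, had 2673 and 2627 on the controls and 1535 with tunicamycin (-0.79, adjusted p = 0.00248), while Psmc6, an ATPase of the cap, had 1104 and 1059 on the controls and 1647 with tunicamycin (0.61). The proteasome calls were few without either control (0 higher and 1 lower each time), and with the mean of its probe sets Psma1 was at -0.88 (adjusted p = 0.0783).

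The targets of ATF4 and CHOP had the highest median of any list, 1.09, with 16 of 24 genes higher and 1 lower. Besides Trib3, Ppp1r15a and Ddit3, Chac1, an enzyme that degrades glutathione, had 305 and 252 on the controls and 2204 with tunicamycin, a log2 change of 2.98 with an SE of 0.164 (adjusted p = 4.39e-05). The gene that fell, Bcl2l11, encodes BIM, a cell death protein that CHOP is known to raise in other cells, and had 487 and 527 on the controls and 185 with tunicamycin (-1.44, adjusted p = 0.033). That decrease was lost without either control (adjusted p = 0.0964 without control replicate 1 and 0.115 without replicate 2), and the list had 13 higher genes each time. Amino acid supply, a known arm of ATF4, rose with it: of 29 genes that make or carry amino acids, 17 were higher and 3 lower, with a median of 0.74. Slc7a1, a carrier of cationic amino acids, had 296 and 201 on the controls and 1485 with tunicamycin (2.59, adjusted p = 0.000281). Slc7a5, the light chain of a carrier of large neutral amino acids, had 224 and 246 on the controls and 1343 with tunicamycin (2.50), and Slc1a4, a carrier of alanine, serine and cysteine, had 101 and 120.4 on the controls and 427 with tunicamycin (1.92). Bcat1 stood far above these. The 3 genes that fell, named after their values were seen, were the amino acid carriers Slc38a4 (-1.33) and Slc7a6 (-0.96) and glutamine synthetase, Glul (-1.08).

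Cytosolic aminoacyl-tRNA synthetases, which load amino acids onto tRNA, rose almost as a set: 16 of 22 were higher and 0 lower (0 lower also at an unadjusted p under 0.05), with a median of 0.823. Wars, for tryptophan, had 275 and 291 on the controls and 911 with tunicamycin (1.68, adjusted p = 0.000319). Iars, for isoleucine, had 639.7 and 587 on the controls and 1756 with tunicamycin (1.51), Tars, for threonine, had 706 and 609 on the controls and 1698 with tunicamycin (1.37), and Nars, for asparagine, had 1199.7 and 1026 on the controls and 2739 with tunicamycin (1.30). The increases of the 16 spanned 0.54 to 1.68, a narrow range beside that of the chaperones. The 31 ribosomal protein genes tested gave 0 calls (2 lower at an unadjusted p under 0.05 by limma) and a median of -0.0219. They had 8 positive and 23 negative values. Their median depended on the normalization, being -0.197 with the deposited scaling and -0.187 with median centring.

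In the pathway that tunicamycin blocks, 17 of 49 genes were higher and 1 lower, with a median of only 0.12. The named genes belong to sugar donor synthesis and to assembly of the chain. Gmppb, which makes GDP-mannose, had 123 and 129 on the controls and 507 with tunicamycin (1.98, adjusted p = 0.000273), and Gnpnat1, an enzyme of UDP-GlcNAc synthesis, had 238 and 259 on the controls and 858 with tunicamycin (1.78). Gfpt1, the first enzyme of that route, had 904 and 771 on the controls and 2623 with tunicamycin (1.65), but 0.97 and no call with the mean of its probe sets (adjusted p = 0.112). Alg12, a mannosyltransferase of the lipid-linked chain, had 52.2 and 61.1 on the controls and 208 with tunicamycin (1.82). The direct target of the drug, Dpagt1, had 144 and 121 on the controls and 254 with tunicamycin, a log2 change of 0.93 with an SE of 0.274 (adjusted p = 0.0492), the weakest of these calls, lost without either control (adjusted p = 0.0962 without control replicate 1 and 0.184 without replicate 2). The single member that fell was the dolichol kinase gene Dolk (-0.81), named after its value was seen, and the list had 0 lower genes without control replicate 2 and 2 without either 12 h tunicamycin array.

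Genes for entry into the ER and for export from it rose by modest amounts. Of 26 genes of translocation and signal peptide cleavage, 17 were higher and 0 lower (0 at an unadjusted p under 0.05), with a median of 0.651, and 9 were higher without control replicate 2. Srprb, a subunit of the receptor that docks ribosomes, had 372 and 347 on the controls and 879 with tunicamycin (1.28), Spcs2, a signal peptidase subunit, had 719 and 719.9 on the controls and 1712 with tunicamycin (1.25), and Sec61a1, the pore of the translocon, had 1624 and 1518 on the controls and 3383 with tunicamycin (1.11). Of 43 genes of ER-Golgi transport, 19 were higher and 0 lower (1 at an unadjusted p under 0.05), with a median of 0.446. Sec23b and Sec24d, coat proteins of the vesicles that leave the ER, had 564 and 467 on the controls and 1978 with tunicamycin (1.94) and 452 and 411 on the controls and 1152 with tunicamycin (1.41). Preb, which loads the coat's GTPase, had 632 and 625 on the controls and 1740.2 with tunicamycin (1.47), and Stx5a, a fusion protein of the Golgi, had 764 and 610.0 on the controls and 1873 with tunicamycin (1.45). Each of these tunicamycin values lay outside the controls, while 9 and 24 genes of the lists were not called.

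RNAs reported as substrates of IRE1-dependent decay were tested for 11 genes, of which 0 were higher (0 at an unadjusted p under 0.05) and 3 lower. Scara3, a scavenger receptor, had 319 and 284 on the controls and 62.9 with tunicamycin, a log2 change of -2.20 with an SE of 0.195 (adjusted p = 0.000319). Pmp22, a membrane protein of the ER and cell surface, had 2080.1 and 1930.2 on the controls and 1156 with tunicamycin (-0.79), and Tapbp, the peptide-loading chaperone tapasin, had 1163 and 1361 on the controls and 763 with tunicamycin (-0.72). The decrease of Scara3 was far deeper than the others. Without either 12 h tunicamycin array 1 gene of the list was higher. Without control replicate 2, Tapbp was not called (adjusted p = 0.0695).

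**Figure D4:**
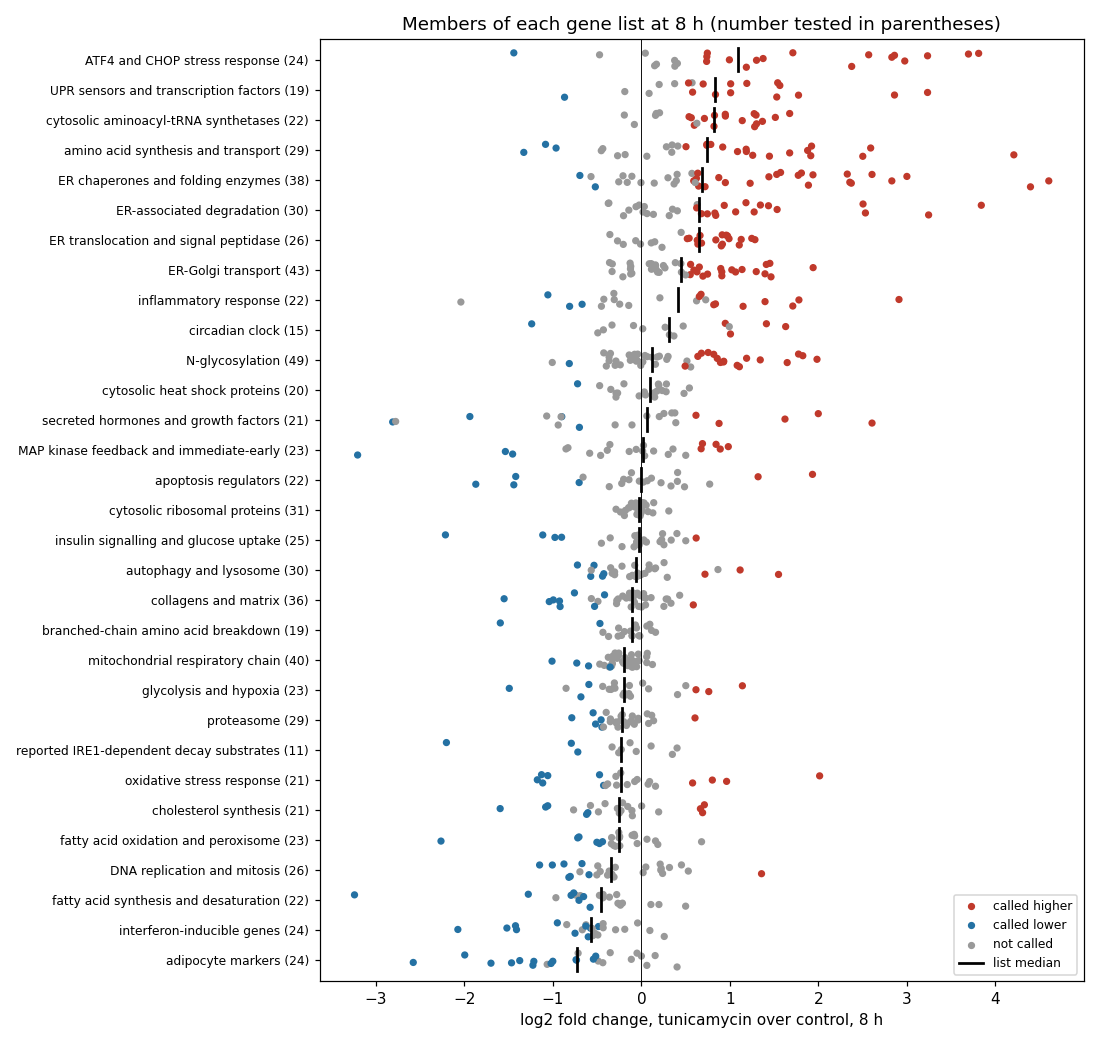
Log2 fold change at 8 h (horizontal axis) of every tested member of 31 gene lists, ordered by list median (black bars), with called genes in red (higher) and blue (lower). Lists of the ER stress response and of amino acid supply lie at the top, and adipocyte markers, with a median of -0.724, at the bottom.

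Markers of the mature fat cell fell, but unevenly. Of 24 tested, 13 were lower and 0 higher (0 at an unadjusted p under 0.05), with a median of -0.724. Without either 12 h tunicamycin array 1 was higher and 15 lower. Pparg, the master factor of fat cell differentiation, had 1773 and 1773 on the controls and 544 with tunicamycin, a log2 change of -1.70 with an SE of 0.12 (adjusted p = 0.000115). Cebpa, the factor that works with it, had 1014 and 1373 on the controls and 293 with tunicamycin, a log2 change of -1.997 with an SE of 0.212 (adjusted p = 0.000718). Both factors fell well below the range of the controls. Klf15, a factor upstream of glucose transporter expression, had 268 and 296 on the controls and 99.9 with tunicamycin (-1.47), Hcar1, the lactate receptor that restrains fat breakdown, had 99.3 and 78.9 on the controls and 12.4 with tunicamycin (-2.58), and Lipe, hormone-sensitive lipase, had 1448 and 1447 on the controls and 556 with tunicamycin (-1.38). With the mean of its probe sets Lipe was at -0.58 and not called (adjusted p = 0.472). Retn, the hormone resistin, had 5968 and 5034 on the controls and 3296 with tunicamycin (-0.73). Adipoq, adiponectin, had 9746 and 8494 on the controls and 8792 with tunicamycin, a log2 change of -0.05 with an SE of 0.109 (adjusted p = 0.808). That difference was smaller than the one between the controls. These Adipoq values lie near the ceiling that quantile normalization sets. Without that normalization Adipoq was at -0.277 with the deposited scaling and -0.267 with median centring, not called in either. Lep, leptin, was below the filter and not tested, with 13.4 and 0 on the controls and 0 with tunicamycin. In cell lysates a smaller number of differentiated cells and less RNA in each of them cannot be told apart.

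Fabp4, the fatty acid binding protein of fat cells, gave discordant readings. Its brightest probe set held the highest value of all genes on each 8 h array, where quantile normalization sets a common ceiling, so its value of 0.00 carries no information. The deposited intensities of that probe set were 11058 and 13993 on the controls and 9859 with tunicamycin. Another bright probe set had 6008 and 8953 on the controls and 6305 with tunicamycin, with a log2 fold change after normalization of -0.04 (SE 0.147, adjusted p = 0.908) in a fit of all probe sets. The 2 dim ones had 456 and 631 on the controls and 27.2 with tunicamycin, and 380.1 and 601 on the controls and 34.8 with tunicamycin, with log2 fold changes of -4.11 (SE 0.204, adjusted p = 0.000235) and -3.62 (SE 0.227, adjusted p = 0.000383). The dim probe sets therefore fell by more than 3 on the log2 scale while the bright one was not called. In the deposited intensities at 12 h, the dim probe sets had 225 and 192 on the control and between 14.1 and 21.2 on the tunicamycin arrays. The bright ones were lower there too, with 11458 on the control and 5366 and 8308 with tunicamycin for the brightest, and 6937 against 2912 and 4941 for the other. With the mean of its probe sets Fabp4 was called lower (-1.94, adjusted p = 0.000699). Which part of the transcript each probe set reads was not analysed here.

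Part of the fat synthesis pathway fell, and with it factors that drive the pathway. Of 22 genes of fatty acid synthesis and desaturation 7 were lower and 0 higher (1 at an unadjusted p under 0.05), with a median of -0.454. Fasn, fatty acid synthase, had 2809 and 2719.7 on the controls and 1138 with tunicamycin, a log2 change of -1.28 with an SE of 0.133 (adjusted p = 0.000668). Pnpla3, a lipid-remodelling enzyme controlled by feeding, had 458 and 409 on the controls and 43.1 with tunicamycin, a log2 change of -3.24 with an SE of 0.384 (adjusted p = 0.00117). Srebf1, the factor SREBP-1 that drives these genes, had 498 and 499 on the controls and 286 with tunicamycin (-0.79), and Thrsp, which promotes fat synthesis, had 3629 and 3923 on the controls and 2219 with tunicamycin (-0.77). The last calls were fragile: Srebf1 lost its call without either control (adjusted p = 0.0659 without control replicate 1 and 0.0648 without replicate 2), Thrsp without replicate 2 (0.0538), and the list had 4 and 2 lower genes. In cholesterol synthesis 5 of 21 genes were lower and 3 higher, with a median of -0.25. Dhcr7, which makes cholesterol from its last precursor, had 379 and 388 on the controls and 125 with tunicamycin (-1.60, adjusted p = 0.00277), and Nsdhl, an earlier enzyme, had 1304 and 1147 on the controls and 586 with tunicamycin (-1.06). Srebf2, the factor of this pathway, had 162 and 209 on the controls and 85.3 with tunicamycin (-1.08, not called without control replicate 2, adjusted p = 0.0652), while the isomerase Ebp had 584 and 595 on the controls and 967 with tunicamycin (0.71, not called without replicate 1, 0.0503). The steps of a single pathway thus went both ways, and without each control in turn 3 and 3 genes of it were lower and 0 and 1 higher.

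Genes that burn fat and amino acids were called only lower, in shares that differed between lists. Of 23 genes of fatty acid oxidation and peroxisomes, 6 were lower and 0 higher (1 at an unadjusted p under 0.05), with a median of -0.251, and 2 and 1 were lower without each control in turn. The 6 are 26.1% of that list, above the background of 8.95%, and it had 4 positive and 19 negative values. Ppargc1b, a coactivator of mitochondrial genes, had 374 and 458 on the controls and 83.8 with tunicamycin, a log2 change of -2.27 with an SE of 0.301 (adjusted p = 0.00195). It stood apart from the enzymes, of which Cpt2, the inner carnitine transferase, had 857 and 1047 on the controls and 574 with tunicamycin (-0.72) and was not called without replicate 2 (adjusted p = 0.118). In the respiratory chain 4 of 40 genes were lower and 0 higher (0 at an unadjusted p under 0.05), a share close to the background of 8.95%, with a median of -0.195, and 2 were lower without control replicate 1. Yet 36 of these 40 genes had negative and 4 positive values, and 14 were lower at an unadjusted p under 0.05 by limma. With median centring 8 were lower and the median was -0.340, and with the deposited scaling the median was -0.350 with 0 called. Sdhd, an anchor of complex II, had 2116 and 1813 on the controls and 971 with tunicamycin (-1.01), and Ndufb3, of complex I, had 2039 and 2160.2 on the controls and 1264 with tunicamycin (-0.73). Branched-chain amino acid breakdown had 2 of 19 genes lower and 0 higher (0 at an unadjusted p under 0.05). They were Auh (86.5 and 196, then 41.2), an enzyme of leucine breakdown whose other probe set pointed up, and Hsd17b10 (1306 and 1280.1 on the controls and 934 with tunicamycin). Neither held in every fit: Auh was at -1.02 without control replicate 2 (adjusted p = 0.0642), and Hsd17b10 was not called without either (adjusted p = 0.143 without control replicate 1 and 0.118 without replicate 2). The 10.5% of this mitochondrial list called lower was close to the background of 8.95%, with 4 positive and 15 negative values and a median of -0.106. Bcat1, the cytosolic first step, is given with the largest increases.

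Insulin signalling changed at a few steps and not as a list: 4 of 25 genes were lower and 1 higher, with a median of -0.0285. Irs1, the docking protein that passes on the signal of the insulin receptor, had 1219.7 and 1235 on the controls and 262 with tunicamycin, a log2 change of -2.21 with an SE of 0.131 (adjusted p = 5.38e-05). The receptor gene Insr had 139 and 195 on the controls and 156 with tunicamycin, a log2 change of -0.08 with an SE of 0.225 (adjusted p = 0.847), and the tunicamycin array lay between the controls. Pik3r1, the regulatory subunit of PI3 kinase, had 1044 and 1173 on the controls and 561 with tunicamycin (-0.98, adjusted p = 0.00283). Pde3b, the phosphodiesterase through which insulin restrains fat breakdown, had 213 and 239 on the controls and 103 with tunicamycin (-1.11). Tbc1d4, which holds glucose transporters inside the cell, had 292 and 326 on the controls and 164 with tunicamycin (-0.90), not called without either control (adjusted p = 0.0515 without control replicate 1 and 0.0826 without replicate 2) nor with the mean of its probe sets (adjusted p = 0.153). The transporter itself, Slc2a4 or GLUT4, had 333 and 382 on the controls and 279 with tunicamycin, a log2 change of -0.35 with an SE of 0.165 (adjusted p = 0.186), and was not called. The decrease of Irs1 was thus the largest of the pathway. Gsk3b, the kinase of glycogen synthase, was the member that rose, named after its value was seen (332 and 315 on the controls and 498 with tunicamycin, 0.62), and was called neither without control replicate 1 nor without replicate 2.

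Inflammatory genes were called in both directions, interferon-inducible genes only lower, and the difference between the lists was not tested. Of 22 inflammatory genes 9 were higher and 3 lower, with a median of 0.416, 12 positive and 10 negative values, and 5 higher genes without control replicate 2. Il6, the cytokine interleukin 6, had 18.9 and 24.5 on the controls and 181 with tunicamycin, a log2 change of 2.91 with an SE of 0.347 (adjusted p = 0.00119). Cxcl5, a chemokine, had 20.9 and 22.6 on the controls and 77.9 with tunicamycin (1.71), and was not called without control replicate 1 (adjusted p = 0.0559). The NF-kappaB subunits Nfkb2 and Relb had 69.4 and 106 on the controls and 303 with tunicamycin (1.78) and 90.6 and 82 on the controls and 232 with tunicamycin (1.40). The 3 that fell, named after their values were seen, were the acute phase gene Hp (-1.06), the chemokine Cxcl12 (-0.81) and the NF-kappaB inhibitor Nfkbia (-0.67). Interferon-inducible genes had 10 of 24 lower and 0 higher (0 at an unadjusted p under 0.05), with a median of -0.565. Irgm1, an immunity-related GTPase, had 251 and 182 on the controls and 48.6 with tunicamycin (-2.07, adjusted p = 0.00108), and Iigp1, of the same family, had 869.8 and 542 on the controls and 135 with tunicamycin (-2.32). Ifit3 had 793 and 507 on the controls and 219 with tunicamycin (-1.52), Ifit1 672 and 448 on the controls and 204 with tunicamycin (-1.41) and Igtp 445 and 319 on the controls and 139 with tunicamycin (-1.42). In each of these the controls differed from each other, replicate 1 being higher, and the tunicamycin array was below both. Without that replicate 4 genes of the list were lower. Ikbke, a kinase upstream of interferon production, had 86.2 and 93 on the controls and 15.7 with tunicamycin (-2.31).

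Regulators of cell death gave 2 higher and 4 lower genes of 22, with a median of -0.000763. Casp4, an inflammatory caspase, had 132 and 132 on the controls and 513 with tunicamycin, a log2 change of 1.93 with an SE of 0.189 (adjusted p = 0.00052). Fas, a death receptor, had 34.5 and 63.4 on the controls and 121 with tunicamycin (1.32) and was singled out after its value was seen. The other caspase tied to ER stress in mice, Casp12, went down, with 169 and 133 on the controls and 54.2 with tunicamycin (-1.42, adjusted p = 0.00398). Bmf, which like BIM frees the mitochondrial death route, had 167 and 246 on the controls and 53.2 with tunicamycin (-1.87), but -0.61 and no call with the mean of its probe sets (adjusted p = 0.56). Without either control 2 genes of the list were higher and 2 lower. Genes of DNA replication and mitosis had 7 lower and 1 higher of 26, with a median of -0.348. Ccnd3, cyclin D3, had 982 and 859 on the controls and 412 with tunicamycin (-1.15, -0.55 and not called with the mean of its probe sets, adjusted p = 0.412). Mcm4, a subunit of the replicative helicase, had 390.2 and 336 on the controls and 179 with tunicamycin (-1.01). The gene that rose, Cdc6, which loads that helicase, had 28.7 and 21.8 on the controls and 68.8 with tunicamycin (1.36) and was not called without either control (adjusted p = 0.0925 without control replicate 1 and 0.166 without replicate 2). Without control replicate 1, 2 genes of this list were lower.

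Other stress pathways answered in part. Of 21 oxidative stress genes, 4 were higher and 6 lower, and without either control 2 and 4. Hmox1, heme oxygenase, had 711 and 646 on the controls and 2747 with tunicamycin, a log2 change of 2.01 with an SE of 0.126 (adjusted p = 6.99e-05). Other enzymes of the same defence fell: Gsr, glutathione reductase, had 280.0 and 308 on the controls and 128 with tunicamycin (-1.18), Gstm1, a glutathione transferase, had 798 and 850.0 on the controls and 378 with tunicamycin (-1.12), and Nqo1, a quinone reductase, had 168 and 152 on the controls and 71.6 with tunicamycin (-1.13, not called without replicate 1, adjusted p = 0.0504). Hmox1 thus did not speak for the list, whose median was -0.233. Among 30 genes of autophagy and lysosome, 3 were higher and 5 lower, and without either control 2 and 0. Sqstm1, the autophagy receptor p62, had 1751 and 1727 on the controls and 3773 with tunicamycin (1.12, 0.89 and not called with the mean of its probe sets, adjusted p = 0.123), and Npc1, which exports cholesterol from lysosomes, had 83.7 and 76.9 on the controls and 241 with tunicamycin (1.55). Cytosolic heat shock genes had 0 higher (1 at an unadjusted p under 0.05) and 1 lower of 20, the small heat shock gene Cryab, with 637 and 720.3 on the controls and 409.7 with tunicamycin (-0.72), not called without control replicate 2 (adjusted p = 0.0747). The median of that list was 0.0968 and turned to -0.0329 with the deposited scaling.

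Matrix genes and secreted signals changed in both directions. Of 36 genes of collagens and matrix 8 were lower and 1 higher, with a median of -0.105, and without control replicate 1 there were 5 lower and 0 higher. Lum, lumican, a proteoglycan of collagen fibres, had 1841 and 1455 on the controls and 557 with tunicamycin, a log2 change of -1.55 with an SE of 0.161 (adjusted p = 0.000668). Lox and Loxl1, which cross-link collagen and elastin, had 2269.5 and 2219 on the controls and 1124 with tunicamycin (-0.996) and 2381 and 2280.4 on the controls and 1225 with tunicamycin (-0.93), and Ogn, osteoglycin, had 864 and 1070.0 on the controls and 466 with tunicamycin (-1.04). Fn1, fibronectin, rose, with 1499 and 1339.6 on the controls and 2129.7 with tunicamycin (0.59), but was not called without either control (adjusted p = 0.0605 without control replicate 1 and 0.124 without replicate 2). Among 21 hormones and growth factors 5 were higher and 4 lower. Angptl6, an angiopoietin-like hormone, had 33.2 and 61.2 on the controls and 189.7 with tunicamycin (1.999), whereas Gdf5, a growth factor of the bone morphogenetic family, had 74.6 and 94.1 on the controls and 9.41 with tunicamycin (-2.81) and Tgfb3 had 92.2 and 83.3 on the controls and 20.7 with tunicamycin (-1.94). Without control replicate 1 this list had 2 higher and 2 lower genes, and without replicate 2 it had 2 and 3. Fgf21, a hormone raised by ATF4 in liver, was below the filter and not tested, with 2.39 and 0 on the controls and 3.83 with tunicamycin.

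Among called genes with all 3 intensities above the pseudocount, the largest decreases were smaller than the largest increases. That rule leaves out genes at or below the pseudocount on any of these arrays. Not all of the 9 genes lower by at least 8-fold are therefore named here. Kctd12b, of the potassium channel tetramerisation domain family, had 169 and 137 on the controls and 11.8 with tunicamycin, a log2 change of -3.40 with an SE of 0.274 (adjusted p = 0.000212). Dusp4, a phosphatase that switches off MAP kinases, had 295 and 393 on the controls and 34.2 with tunicamycin, a log2 change of -3.21 with an SE of 0.236 (adjusted p = 0.000141). C1qtnf6, a secreted relative of adiponectin, had 70.4 and 84.4 on the controls and 4.66 with tunicamycin (-3.39), close to the pseudocount with tunicamycin. Vsir, the immune checkpoint protein VISTA, had 128 and 158 on the controls and 18.9 with tunicamycin (-2.73), and Lfng, which adds sugars to Notch, had 79.4 and 117 on the controls and 12.7 with tunicamycin (-2.67). Rgcc, a regulator of the cell cycle, had 589.8 and 827 on the controls and 124 with tunicamycin (-2.46), and Chst1, a sulfotransferase of keratan sulfate, had 154 and 125 on the controls and 25 with tunicamycin (-2.34). The drop left most of these genes dim with tunicamycin. Pnmal2 had 36.8 and 54 on the controls and 3.01 with tunicamycin (-2.995) and was not called without control replicate 2 (adjusted p = 0.0554). The transcripts 2010003K11Rik and 4931408D14Rik had 74.2 and 76.2 on the controls and 9.23 with tunicamycin (-2.68), and 58.6 and 71.7 on the controls and 10.5 with tunicamycin (-2.33). The call of 2010003K11Rik was lost without either control (adjusted p = 0.0717 without control replicate 1 and 0.0723 without replicate 2).

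Most markers of the cultures' label passed the filter. Of 12 adipocyte markers chosen, 10 had a probe set and 9 of these were tested, Lep being too dim. Of 9 preadipocyte or fibroblast markers with a probe set 7 were tested, so the arrays held signal of both kinds. Of 9 adipocyte markers tested, 5 were lower with tunicamycin and 0 higher (0 at an unadjusted p under 0.05), and their summed intensity was 46405 and 45409 on the controls and 38463 with tunicamycin. That sum includes Fabp4 at the ceiling set by the normalization. Of 7 preadipocyte or fibroblast markers, 2 were lower, 1 higher (0 without either 8 h control) and 4 not called, and the sum was 18452 and 17477 on the controls and 13247 with tunicamycin. S100a4, a calcium-binding protein of fibroblasts, had 4489 and 4281 on the controls and 1153 with tunicamycin (-1.92, adjusted p = 5.63e-05). Pdgfra, a receptor of fat cell progenitors, had 2158 and 2055 on the controls and 669.6 with tunicamycin (-1.65), with 1 of its other 2 probe sets uncalled and in the other direction. Both sums were thus lower, but the fibroblast panel did not move together. It had 3 positive and 4 negative values and a median of -0.0702. The adipocyte panel had 1 positive and 7 negative values and a median of -0.516. Only 3 of 8 macrophage markers passed the filter, with 0 called (0 at an unadjusted p under 0.05 by limma) and sums of 344 and 505 on the controls and 441 with tunicamycin. What these shifts contribute to the lists above was not tested.

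The other time points used separate arrays and show how much of the 8 h effect was present before and after. Of the 1028 genes higher at 8 h, 950 (92.4%) had both 12 h tunicamycin arrays above the 12 h control, against 40.6% of all tested genes, and 910 (88.5%) had the 4 h tunicamycin array above its control, against 53.3%. Of the 977 genes lower at 8 h, 884 (90.5%) were below at 12 h, against 41.2% of all tested genes, and 743 (76.0%) were below at 4 h, against 46.6%. At 4 h, 39 genes were called higher and 4 lower (0.357% and 0.0366% of those tested), and 39 and 2 of these were called the same way at 8 h. At 12 h, 1100 were higher and 1195 lower (10.1% and 10.9%). Of these, 640 genes were higher at both 8 h and 12 h, 62.3% of the 8 h list and 58.2% of the 12 h list, and 586 were lower at both, 59.98% and 49.0%. Calls in opposite directions at 8 h and 12 h numbered 5. The fits share the spread of the same replicated arrays, so the calls are not independent between times. Arrays at 12 h differed from the rest in their hybridisation controls, with a BioC to BioB ratio of 1.52 to 1.6 against 3.5 to 3.94 at 4 h and 8 h.

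The difference of the effect between 4 h and 8 h was tested directly. It was called for 65 genes (0.595%), 28 positive (0.257%), of which 27 were higher at 8 h, and 37 negative (0.339%), of which 36 were lower at 8 h. At an unadjusted p under 0.05 it numbered 1412 genes (12.9%). Ddit3 and Atf4 were already called at 4 h: the log2 fold changes of Ddit3 were 3.25 at 4 h, then 3.23 at 8 h and 3.09 at 12 h, and those of Atf4 were 1.62 at 4 h, then 1.54 at 8 h and 1.33 at 12 h, with differences between 8 h and 4 h of -0.01 (adjusted p = 0.986) and -0.08 (0.909). Atf3, of the same branch, had 1.68 at 4 h, then 2.86 at 8 h and 3.31 at 12 h, and its difference of 1.18 was not called (SE 0.308, adjusted p = 0.139). Chac1 and Herpud1 stood at 3.22 and 3.51 at 4 h, and their differences were not called. Several chaperone and amino acid genes went on rising. Creld2 had 2.92 at 4 h, then 4.60 at 8 h and 4.76 at 12 h, a difference of 1.68 (SE 0.188, adjusted p = 0.0243), and Bcat1 had 0.82 at 4 h, then 4.21 at 8 h and 3.64 at 12 h, a difference of 3.39 (SE 0.326, adjusted p = 0.0164). Some genes of the fat cell fell only after 4 h. Pparg had 0.22 at 4 h, then -1.70 at 8 h and -1.10 at 12 h, a difference of -1.92 (SE 0.183, adjusted p = 0.0164), and Irs1 had -0.23 at 4 h, then -2.21 at 8 h and -1.55 at 12 h, a difference of -1.99 (SE 0.2, adjusted p = 0.018). Fasn had 0.03 at 4 h, then -1.28 at 8 h and -1.52 at 12 h, and Hmox1 had -0.36 at 4 h, then 2.01 at 8 h and 2.11 at 12 h. Each of these differences rests on a single array per group at 4 h and on the lone 8 h tunicamycin array, and none of the genes named for it was called without control replicate 1 or without replicate 2 (adjusted p 0.0740 to 0.181 and 0.0540 to 0.159). The 4 h tunicamycin array also stood apart in its 3' to 5' ratios, 2.81 for beta-actin and 43.5 for pyruvate carboxylase, and the part of this in the differences was not tested.

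Between 8 h and 12 h the effect was called as different for 0 genes (limma, smallest adjusted p 0.229), against 1349 genes (12.4%) at an unadjusted p under 0.05. No later change was thus called in this fit, whereas without the filter on dim genes 5 were called positive and 165 negative. The lists show values side by side. Interferon-inducible genes had 0 lower at 4 h, 10 at 8 h and 20 at 12 h of 24, with medians of 0.0834, -0.565 and -1.25, and Ifit3 had 0.09 at 4 h, then -1.52 at 8 h and -3.37 at 12 h. Il6 had 1.56 at 4 h, then 2.91 at 8 h and 3.71 at 12 h, and Cebpa had -0.18 at 4 h, then -1.997 at 8 h and -1.98 at 12 h. Adipocyte markers had medians of -0.11, -0.724 and -0.541, with 10 lower at 12 h.

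**Figure D5:**
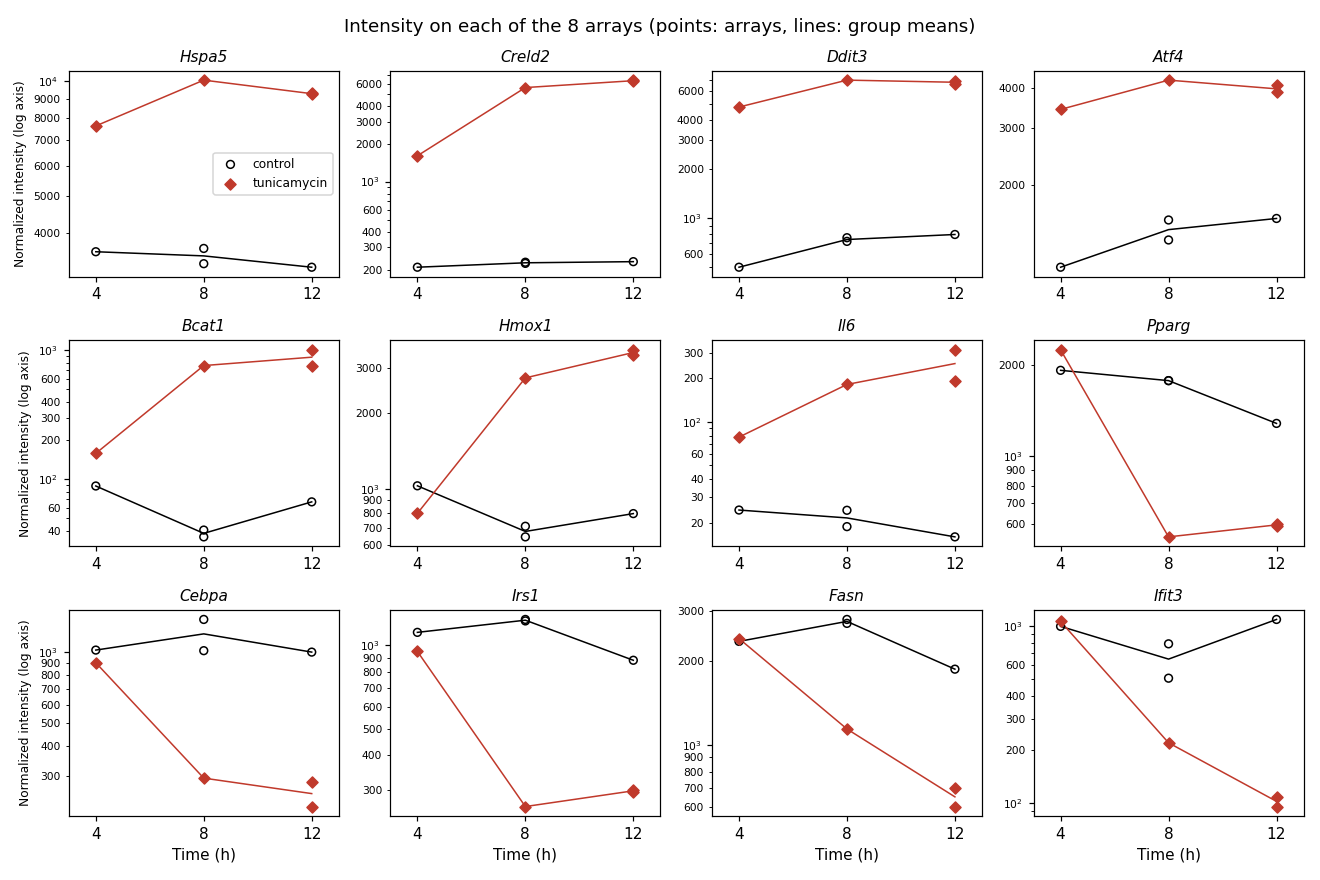
Normalized intensity (log axes) against time in hours for 12 genes, with open circles for control arrays, filled diamonds for tunicamycin arrays and lines through group means. Hspa5, Creld2, Ddit3 and Atf4 are above control from 4 h on, while Pparg, Cebpa, Irs1, Fasn and Ifit3 lie near control at 4 h and far below it at 8 h.

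The authors' deposited table for 8 h lists log10 ratios with p-values for the probe sets, computed from the same arrays and so no independent measurement. Its direction is not stated, and positive ratios were taken to mean higher with tunicamycin, since they correlated with the effects computed here at r = 0.926 across genes, which are not independent replicates. Read so, 2001 of the 2005 called genes (99.8%) had the same sign in the authors' deposited table, and 1912 (95.4%) had a p-value under 0.05 there, against 37.1% of all tested genes. The 4 genes of opposite sign in the authors' deposited table were Creb3l3, Fbxo36, Map3k10 and Nrxn3, none of which had changed by 2-fold in the fit here. Of the genes named for the largest changes, B3gntl1 and Pnmal2 had the same sign there but log10 ratios of only 0.245 and -0.193. Their p-values there, from the authors' unstated test, were 0.252 and 0.186, so these large changes were not matched in that table.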

How the data were processed

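RNA of 8 cultures of 3T3-L1 adipocytes was measured on 1-colour Affymetrix arrays. The deposited value table holds an intensity per probe set, already background-subtracted, since 19.2% to 20.9% of the values are at or below 0. No source used here gives its scaling, and array medians differed by up to 1.20 on the log2 scale. The authors' deposited 8 h table lists log10 ratios with p-values for the probe sets, per the file headers, with direction and test unstated.

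Of 45101 probe sets, 34958 carried 1 gene symbol in the platform annotation, 932 several and 9211 none, and only those with 1 were used (symbols were updated by gene ID for 34754). Arrays were quantile normalized and values below 0 were then set to 0. Then log2(intensity + 2.956) was taken, the pseudocount being the 10th percentile of positive deposited values. A fold change on that scale understates the change of dim genes. A gene was read from its probe set with the highest mean. Genes with a mean under the 40th percentile (4.19 on the log2 scale, an intensity of about 15.3) were left out, which left 10916 of 18194. That mean covered all 8 arrays, tunicamycin arrays included, so a gene could pass only through the arrays where it was high.

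The fit was limma's with 1 mean for each of 6 groups, an intensity trend and 2 residual degrees of freedom, and p-values were two-sided and adjusted by the Benjamini-Hochberg method. The spread comes from the pairs of replicates, control at 8 h and tunicamycin at 12 h. No other array was a replicate, and the small number of arrays limits precision. The script was tested on simulated data. Versions were R 4.3.3, limma 3.58.1, Python 3.11.15 and matplotlib 3.10.9.

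Named were the 15 largest called changes each way with the tunicamycin array outside both controls and all 3 values above the pseudocount, up to 4 called genes per list, a set of stress and adipocyte genes whatever their test, and up to 8 genes each way per difference between times. Members, the 31 gene lists and the 3 marker panels were chosen with earlier results of these data known, and no list was tested as a set. Promoters were those of RefSeq on GRCm38.p6. The effect of other normalizations, pseudocounts, filters, variance models, probe set rules and left-out arrays closes the text.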

Additional observations from a re-analysis of the deposited data

Results flagged for a closer look

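The effect of tunicamycin differed between 8 h and 4 h by limma's test of the difference for 65 genes, and those named by rule are given here with the 8 h minus the 4 h log2 fold change. Among genes of the ER and of amino acid transport the effect was larger at 8 h for Sdf2l1 (2.19), Sel1l (1.77), Wfs1 (1.87), Ero1a (1.71), Creld2 (1.68), Sec23b (1.54), Ccdc134 (1.95) and Slc7a5 (1.51). Other genes with a positive difference were Bcat1 (3.39), Hmox1 (2.38), Slc20a1 (1.87) and Nucb2 (1.85).

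The difference was negative for the fat cell genes Pparg (-1.92), Klf15 (-1.80), Lipe (-1.19), Fasn (-1.31) and Irs1 (-1.99). It was also negative for Kctd12b (-2.89), Dusp4 (-2.77), Fam110c (-2.38), Chst1 (-2.35), Zfp395 (-2.13), Rgcc (-2.06), Errfi1 (-2.03), Pdgfra (-1.50) and S100a4 (-1.49).

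In 3 genes with a positive difference the 4 h tunicamycin array was low. 1810010H24Rik (3.27) had 18 on the 4 h control and 9.19 on the 4 h tunicamycin array, but 17.9 and 18.6 on the controls and 115 with tunicamycin at 8 h. Adam21 (3.65) had 80 and 18 at 4 h, and 30.3 and 33.8 on the controls and 108 with tunicamycin at 8 h. Ypel1 (2.93) had 98.8 and 7.63 at 4 h, and 52.2 and 57.6 on the controls and 42.7 with tunicamycin at 8 h, where it was not called (-0.34, adjusted p = 0.511).

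The 4 h tunicamycin array had a 3' to 5' ratio of 43.5 for pyruvate carboxylase and 2.81 for beta-actin, against 13.1 and 1.82 on its control. The part of this in the differences was not tested.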

How the results depend on the processing

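The number of genes higher and lower at 8 h, 1028 and 977, became 25 and 13 with the deposited scaling (65.8% higher in place of 51.3%), where the median residual SD was 0.456 against 0.151. It became 217 and 90 without the filter, 404 and 313 without the intensity trend, and 521 and 601 with the mean of all probe sets. Leaving out each replicate in turn gave 532 to 1149 higher and 403 to 1155 lower genes, the fewest without an 8 h control. With other pseudocounts, a 60th percentile filter, median centring, or fewer groups of arrays, both counts stayed within 1.5 times.

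The effect at 8 h minus that at 4 h was positive for 28 and negative for 37 genes, but for 0 and 1 with the deposited scaling, 91 and 56 without the filter, 59 and 80 with the 60th percentile filter, and 0 and 0 without the trend and with the mean of all probe sets. Leaving out each replicate gave 0 to 22 positive and 0 to 33 negative genes. The deposited scaling moved the median of all genes by 0.446 for this difference and by -0.336 for 12 h minus 8 h. The latter had 0 calls, but 5 positive and 165 negative without the filter.

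Of 153 named genes tested, calls were lost by 120 with the deposited scaling, 110 without the filter, 44 without the trend, 23 with the mean of all probe sets, and 28 and 29 without the 8 h controls. The sign turned for Ern1 with the mean of all probe sets (-0.0136), and for the uncalled Adipoq (-0.149 to 0.0498) and Insr (-0.323 to 0.156) over the fits that leave out a replicate. The causes were not tested. No paired analysis was possible because the 8 h groups share only replicate number 1.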

Other observations

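Clock genes, which keep daily time in cells, changed in part. Of 15 tested, 4 were higher and 1 lower, with a median log2 fold change of 0.317. Cry1, a repressor of the clock, had 89.1 and 134 on the controls and 345 with tunicamycin (1.63, adjusted p = 0.00997), and Per1, its partner, had 84.4 and 89.1 on the controls and 236 with tunicamycin (1.41). Bhlhe40, another repressor, had 287 and 267 on the controls and 115 with tunicamycin (-1.24). Nfil3, a factor of the same network, had 118 and 138 on the controls and 259 with tunicamycin (1.01) and was not called without control replicate 1 (adjusted p = 0.0703), where 2 genes of the list were higher.

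Immediate-early genes and brakes of MAP kinase signalling had 5 higher and 3 lower of 23. All 3 that fell are brakes, Dusp4 among them, and Spry4 had 185 and 196 on the controls and 67.4 with tunicamycin (-1.46) and Dusp1 332 and 373 on the controls and 119 with tunicamycin (-1.54). Of the 5 that rose, 1 and 2 were called without each 8 h control in turn. In glycolysis and the response to low oxygen 3 of 23 genes were higher and 3 lower, but 1 and 0 without control replicate 1, and 1 and 2 without replicate 2. Pdk4, which holds back pyruvate oxidation, had 80.3 and 89.7 on the controls and 191 with tunicamycin (1.14), and Egln3, an oxygen sensor, had 218 and 157 on the controls and 63.8 with tunicamycin (-1.49), and was not called without control replicate 1 (adjusted p = 0.0621).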
